A study of Rattus norvegicus with 33 samples.

Results

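The 44 cell cycle and DNA replication genes described here were taken from the 34912 gene names of a rat expression array by name, as a list of known cell cycle genes. They comprise 11 genes of DNA replication and nucleotide supply (Mcm2 to Mcm7, Pcna, Rrm2, Tyms, Tk1 and Cdc6), 3 regulators of transcription (E2f1, E2f7 and Foxm1) and 30 genes of mitosis and its kinases. The probe of 43 of them was well above background on at least 3 of the 33 arrays, and that of 28 was so on all 33. Hmmr, a microtubule-binding protein of the spindle, was well above background on 1 array and was not tested. The 43 tested members are a subset of the 23140 gene names that passed this filter.

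The arrays measured total RNA from the prostate of male Sprague-Dawley rats on postnatal day (PND) 30, 100 or 145. The sample labels speak of whole prostate, whereas the series as a whole is titled for dorsolateral prostates. Dams and pups were kept on a low phytoestrogen chow. Neonatal groups were injected under the skin with vehicle or with 2.5 mg/kg estradiol benzoate (EB), an esterified estrogen, on PND 1, 3 and 5. From PND 90, adult groups carried implants, either empty or filled with estradiol and testosterone (T+E), for 10 days up to PND 100 or 55 days up to PND 145. The 10 groups are control and EB at PND 30, and control, EB, T+E, and EB followed by T+E (EB+T+E) at both PND 100 and PND 145. Control and EB at PND 30 and EB at PND 145 had 4 arrays, and each other group had 3. The labels give 3 to 4 litters per group and number the replicates without tying them to litters, so the p-values refer to the variation among the arrays of a group, which may be partly technical.

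Cells copy their DNA in S phase and separate it in mitosis. The Mcm2 to Mcm7 proteins form the ring-shaped helicase that opens the DNA, Pcna is the clamp that holds the polymerases, and Rrm2, Tyms and Tk1 supply nucleotides. E2F factors switch on replication genes, and Foxm1 together with the MuvB complex switches on genes of mitosis such as the cyclins B, Plk1 and the Aurora kinases. The prostate grows quickly before and during puberty under androgen, and the epithelium of the adult gland renews slowly.

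A value is the log2 of a probe's signal minus the log2 of the 75th percentile of that array, so 0 marks the signal of that percentile and a difference of 1 a factor of 2. The brightest probe of each gene was used, and values of different genes are not set against each other, since their probes differ. Replicates are given in the order 1 to 3 or 1 to 4. The 75th percentile lay between 1694.3 and 4737.1 intensity units over the 33 arrays, 61.53% to 68.85% of spots were well above background, no spot was saturated, and replicates of a group correlated at 0.864 to 0.986. The lowest of these correlations belongs to EB+T+E at PND 100, where replicate 1 had a mean of 6 luminal epithelial markers of 0.03, against 2.89 and 2.87 in the other arrays of that group. The mean of 6 skeletal muscle markers was 4.86, 3.44 and -5.46 in its replicates 1, 2 and 3. Replicate 2 of the PND 145 controls had 10 spermatid markers at a mean of 2.43, against -3.42 and -5.07 in the other controls of that age. The 6 luminal markers were well above background in every group. In bulk samples such as these, more dividing cells and more RNA per dividing cell cannot be told apart.

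**Figure D1:**
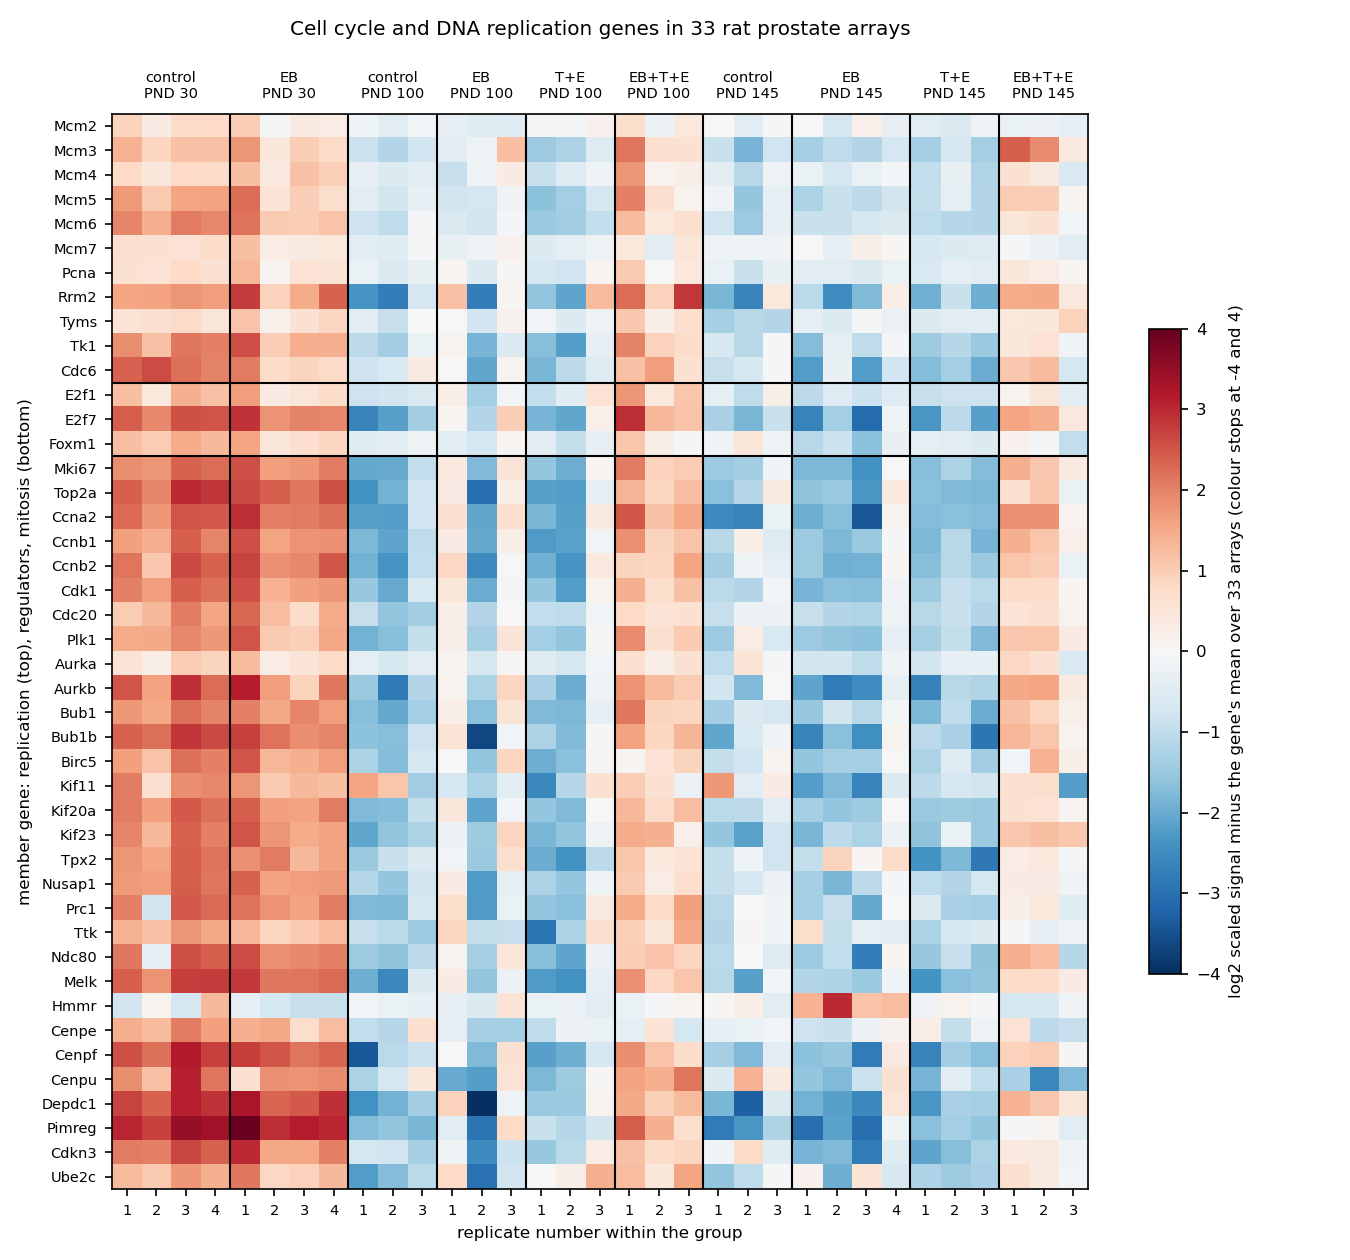
Levels of the 44 members (vertical axis, ordered by role) on the 33 arrays (horizontal axis, by age and group), drawn as the log2 scaled signal minus each gene's mean over all arrays, with the colour scale ending at -4 and 4. Most members are high on the PND 30 arrays and on the arrays of EB+T+E and low on the other adult arrays, and Mcm2, Kif11 and Cenpu depart from that pattern.

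Across the 10 groups the members were highest at PND 30, low in adult control, EB and T+E prostates, and in between in EB+T+E prostates. The mean of the 11 replication members was -0.28 ± 0.14 (SD, n = 4) in PND 30 controls, -2.16 ± 0.37 (n = 3) in PND 100 controls and -2.22 ± 0.45 (n = 3) in PND 145 controls. In EB+T+E it was -0.64 ± 0.51 at PND 100 and -1.05 ± 0.43 at PND 145 (n = 3 each). The mean of the mitosis members was -2.35 ± 0.42 in PND 30 controls, -5.56 ± 0.37 in PND 100 controls and -4.98 ± 0.42 in PND 145 controls. In EB+T+E the mitosis mean was -3.25 ± 0.26 at PND 100 and -3.89 ± 0.46 at PND 145. At PND 100 the EB+T+E group mean was above the other 3 group means of that age for 43 of the 43 tested members, and at PND 145 for 37, the others being Mcm2, Mcm7, Foxm1, Kif11, Cenpu and Cenpe, which no adult array measured well above background. The EB+T+E mean stayed below the PND 30 control mean for 38 members at PND 100 and 42 at PND 145. Mcm3 was above it at both ages, and Mcm4, Rrm2, Tyms and E2f1 at PND 100. The arrays of EB+T+E and control did not overlap for 39 members (90.7%) at PND 100, against 26.2% of all genes. At PND 145 this held for 24 members (55.8%), near the 52.6% of all genes. For EB+T+E and EB the shares were 67.4% against 10.9% at PND 100 and 48.8% against 31.4% at PND 145. For EB+T+E and T+E they were 79.1% against 17% and 81.4% against 41.1%.

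**Figure D2:**
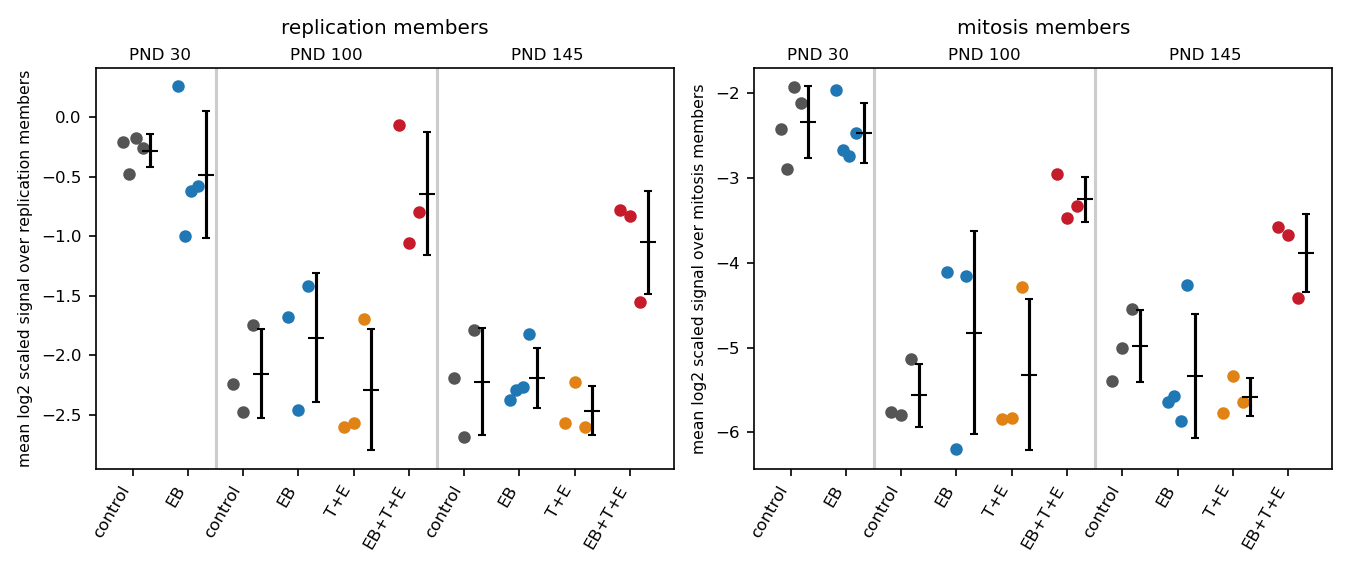
Mean log2 scaled signal of the replication members and of the mitosis members on each array (points), with the mean and SD of each group (bars), by age and group. The replication mean in EB+T+E is -0.64 ± 0.51 at PND 100 and -1.05 ± 0.43 at PND 145, against -2.16 ± 0.37 and -2.22 ± 0.45 in controls.

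The comparison of control prostates at PND 100 and PND 30 asks how the members change between the growing and the adult gland. Between these ages 40 of the 43 members fell, with a median log2 ratio of -3.45 over the mitosis members and -1.98 over the replication members. All 3 regulators, 10 of 11 replication members and 27 of 29 mitosis members were called at an adjusted p of 0.05 in limma, none was higher, and over all genes 2.26% were called, with 1.49% lower. The median over the members was -3.02 and over all genes 0.03. Pimreg, a mitotic regulator, fell by 4.88 ± 0.63 (SE; limma adjusted p = 4.83e-05), Depdc1 by 4.66 ± 0.80 (0.000698), and the kinetochore protein Cenpf by 4.45 ± 0.64 (0.000138). E2f7, a repressor of the E2F family, fell by 4.40 ± 0.64 (adjusted p = 0.00015). E2f7 was not well above background on any PND 100 control array, so it was at least 16.8-fold lower, a bound taken from the PND 30 mean and, on each dim array, the higher of the probe's own signal and the lowest signal still counted as well above background. By the same bound Aurkb, the kinase of the chromosomal passenger complex, was at least 11.8-fold lower and Cenpe at least 2.11-fold lower. The smallest falls were those of Mcm2, by 0.95 ± 0.23 (adjusted p = 0.0199), Mcm7, by 0.97 ± 0.21 (0.00698), Pcna, by 1.01 ± 0.26 (0.0276), and Tyms, by 1.06 ± 0.27 (0.0313). Mcm4 (-1.14, adjusted p = 0.0864), the spindle pole kinase Aurka (-1.16, 0.0673) and the spindle motor Kif11 (-1.19, 0.504) did not pass. Within the 3 slides that held arrays of both ages the median over the members was -2.43, -3.84 and -2.82.

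Genes of the same processes outside the member list, from lists drawn up for this report with earlier results of these data known, were lower at PND 100 as well. Of 31 other replication genes tested, 9 fell and none rose, with a median of -0.88; they include the replication-coupled methylation factor Uhrf1 (at least 2.58-fold lower, limma adjusted p = 0.000119) and the chromatin assembly subunit Chaf1a (-1.59, 0.00243). Of 40 other mitosis genes 28 fell, with a median of -2.51, with the smallest p for the shugoshin Sgo1 (at least 8.75-fold lower, adjusted p = 4.83e-05). Of 14 G1 cyclins, kinases and E2F partners 3 fell, namely Mybl2 (-3.89), E2f8 (-3.60) and Ccne1 (-1.95). Of 16 S-phase checkpoint and repair genes 8 fell. Of 18 inhibitors and quiescence genes none was called.

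In EB-treated prostates 36 of 43 members fell from PND 30 to PND 100 (8 of 11 replication members, 2 of 3 regulators and 26 of 29 mitosis members), where 8.62% of all genes were called and 3.12% were lower. The median was -2.18 over the members and 0.14 over all genes. Pimreg fell by 4.11 ± 0.63 (limma adjusted p = 0.000435), Depdc1 by 3.87 ± 0.80 (0.00499), Bub1b by 3.24 and the topoisomerase Top2a by 3.22. The smallest falls that passed were 0.67 for Mcm7, 0.84 for Mcm2, 0.89 for Tyms and 1.17 for Mcm4. Without replicate 2 of EB at PND 100 the count was 9, where 718 of all genes were called, against 1995 with every array. Without replicate 1 of EB at PND 30 the count was 23, where 1929 genes were called. In a fit of only these groups it was 0, where 6 genes were called, with 42 members at an unadjusted p under 0.05. The share of all genes at that p was not computed there. From PND 100 to PND 145 no member was called in controls (0% of all genes called; 2 members, 4.65%, at an unadjusted p under 0.05, against 2.46% of all genes, Tyms at -0.74 ± 0.29 and Cdc20 at 0.83 ± 0.38, both with limma adjusted p = 1). None was called in EB (0.748% of genes; 5 members, 11.6%, at an unadjusted p under 0.05, against 15.7% of all genes, with Aurkb, well above background on 1 of 4 arrays at PND 145, at -1.86 ± 0.64, adjusted p = 0.152, and Mcm3 at -1.25 ± 0.43, 0.156). None was called in T+E either (0.0432% of genes; 1 member, 2.33%, against 7.73% of all genes, Ube2c, at -1.86 ± 0.65, adjusted p = 0.359).

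Replication and mitosis genes differ in the promoter letters known for their control: E2F factors bind sites of the kind searched with the letters TTCCCGC, the letters TTCGCGC, the letters TTGCCGC and the letters TTGGCGC, while the cell cycle homology region (CHR, searched with the letters TTTGAA and the letters TTCGAA) and the CCAAT box, bound by NF-Y, are known from mitosis genes. RefSeq promoters of the build GRCr8 were matched for 34 of the 44 members by symbol, and the 250 bases before the gene start were searched on both strands, with each overlapping match counted. The members with none in the table were Mcm4, Rrm2, Cdc6, E2f1, Foxm1, Ccna2, Aurkb, Tpx2, Pimreg and Ube2c. E2F-type letters were present in 5 of 8 replication promoters (62.5%), 3 of 25 mitosis promoters (12%) and 7.97% of all 27457 promoters. CHR letters were present in 2 of 8 replication promoters (25%), 11 of 25 mitosis promoters (44%) and 17.3% of all promoters. CCAAT was present in 5 of 8 (62.5%), 19 of 25 (76%) and 34.3%, and CHR and CCAAT together in 1 of 8 (12.5%), 10 of 25 (40%) and 6.22%. A match is a stretch of letters and not a shown binding site. The 5 promoters below were chosen to show both kinds: Mcm5 (chr19:13488563-13488812, plus strand) and Mcm6 (chr13:42404353-42404602, minus strand) for replication, and Cdk1 (chr20:19265043-19265292, plus strand), Cdc20 (chr5:137255800-137256049, minus strand) and Top2a (chr10:84473094-84473343, minus strand) for mitosis. Each runs 5′ to 3′ on the gene's strand and ends at the base before the start, and capitals mark the E2F-type, CHR and CCAAT letters on either strand.
Mcm5: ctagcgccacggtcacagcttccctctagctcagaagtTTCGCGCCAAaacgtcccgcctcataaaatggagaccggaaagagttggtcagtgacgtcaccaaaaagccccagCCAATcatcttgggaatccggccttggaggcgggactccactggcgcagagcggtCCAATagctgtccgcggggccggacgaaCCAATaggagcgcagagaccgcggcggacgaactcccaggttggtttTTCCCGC
Mcm6: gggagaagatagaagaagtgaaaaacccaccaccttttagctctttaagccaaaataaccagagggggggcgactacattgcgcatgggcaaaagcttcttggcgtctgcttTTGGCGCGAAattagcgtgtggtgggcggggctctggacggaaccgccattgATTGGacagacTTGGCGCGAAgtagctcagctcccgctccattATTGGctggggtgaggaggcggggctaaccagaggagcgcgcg
Cdk1: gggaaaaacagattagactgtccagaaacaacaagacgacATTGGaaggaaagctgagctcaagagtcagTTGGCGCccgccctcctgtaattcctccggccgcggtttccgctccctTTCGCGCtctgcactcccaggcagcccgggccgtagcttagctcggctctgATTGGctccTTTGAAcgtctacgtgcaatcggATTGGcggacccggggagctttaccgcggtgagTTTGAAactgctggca
Cdc20: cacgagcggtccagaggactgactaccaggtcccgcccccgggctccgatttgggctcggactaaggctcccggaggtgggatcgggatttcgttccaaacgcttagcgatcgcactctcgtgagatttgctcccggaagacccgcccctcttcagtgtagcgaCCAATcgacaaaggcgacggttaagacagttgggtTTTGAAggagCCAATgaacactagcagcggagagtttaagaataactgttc
Top2a: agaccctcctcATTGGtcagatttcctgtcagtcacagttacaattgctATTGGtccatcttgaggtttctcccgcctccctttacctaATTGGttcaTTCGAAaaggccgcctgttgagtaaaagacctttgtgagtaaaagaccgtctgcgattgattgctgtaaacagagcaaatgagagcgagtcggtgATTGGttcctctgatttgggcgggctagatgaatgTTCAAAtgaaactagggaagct
Mcm5 and Mcm6 held E2F-type letters and CCAAT with no CHR letters, Cdc20 and Top2a held CHR and CCAAT with no E2F-type letters, and Cdk1 held all 3 kinds.

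Among the helicase subunits, Mcm2 differed little between the adult groups. At PND 30 Mcm2 lay at 2.17, 1.62, 2.07 and 2.08 in controls and 2.29, 1.24, 1.65 and 1.58 in EB. At PND 100 Mcm2 lay at 1.11, 0.83 and 1.18 in controls, 0.96, 0.81 and 0.79 in EB, 1.23, 1.26 and 1.47 in T+E and 1.99, 1.05 and 1.72 in EB+T+E. At PND 145 Mcm2 lay at 1.27, 0.84 and 1.25 in controls, 1.31, 0.63, 1.49 and 0.96 in EB, 0.87, 0.72 and 1.15 in T+E and 1.04, 1.06 and 0.98 in EB+T+E. At PND 145 the groups overlapped. At PND 100 every T+E array was above every control and EB array, and every EB+T+E array was above every EB array. EB+T+E replicates 1 and 3 at PND 100 were above every control array, with replicate 2 among them. Mcm3 and Mcm6, singled out after their values were seen, moved much more. At PND 100 Mcm6 lay at -3.88, -4.07 and -3.14 in controls, -3.63, -3.78 and -3.08 in EB, -4.53, -4.44 and -4.03 in T+E and -1.77, -2.62 and -2.40 in EB+T+E. At PND 145 Mcm6 lay at -3.85, -4.51 and -3.45 in controls, -3.94, -3.93, -3.68 and -3.61 in EB, -4.05, -4.20 and -4.21 in T+E and -2.56, -2.44 and -3.15 in EB+T+E. Every EB+T+E array was above every other adult array of its age. At PND 145 Mcm3 lay at -1.61, -2.59 and -1.52 in controls, -2.03, -1.74, -1.90 and -1.43 in EB, -2.07, -1.40 and -2.08 in T+E and 1.67, 1.19 and -0.31 in EB+T+E, without overlap between EB+T+E and the others. At PND 100 Mcm3 lay at -1.59, -1.88 and -1.48 in controls, -1.14, -0.93 and 0.50 in EB, -2.18, -1.99 and -1.23 in T+E and 1.44, -0.03 and -0.10 in EB+T+E, where EB replicate 3 was above EB+T+E replicates 2 and 3. The 4 probes of Mcm4 disagreed, with a lowest correlation of -0.20, so its values depend on the probe taken.

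Pcna, the polymerase clamp, moved by the least among the replication members called in EB+T+E. At PND 30 Pcna lay at 0.22, 0.16, 0.40 and 0.21 in controls and 0.91, -0.31, 0.16 and 0.12 in EB. At PND 100 Pcna lay at -0.66, -0.94 and -0.70 in controls, -0.28, -0.95 and -0.35 in EB, -1.10, -1.18 and -0.31 in T+E and 0.64, -0.40 and 0.03 in EB+T+E. At PND 145 Pcna lay at -0.68, -1.30 and -0.69 in controls, -0.86, -0.82, -0.99 and -0.67 in EB, -1.01, -0.75 and -0.85 in T+E and 0.06, -0.12 and -0.33 in EB+T+E. EB+T+E was above control on every array at both ages, while at PND 100 it overlapped EB and T+E.

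Rrm2, the small subunit of ribonucleotide reductase, spread widely within the adult groups. At PND 30 Rrm2 lay at 1.49, 1.52, 1.69 and 1.59 in controls and 2.70, 0.83, 1.38 and 2.26 in EB. At PND 100 Rrm2 lay at -2.44, -2.85 and -0.76 in controls, 1.09, -2.87 and 0.00 in EB, -1.66, -2.19 and 1.18 in T+E and 2.13, 0.82 and 2.74 in EB+T+E. At PND 145 Rrm2 lay at -1.91, -2.73 and 0.33 in controls, -1.17, -2.58, -1.86 and 0.16 in EB, -2.01, -0.99 and -2.03 in T+E and 1.39, 1.42 and 0.34 in EB+T+E. EB replicate 1 and T+E replicate 3 at PND 100 reached into the EB+T+E range, and EB replicate 3 lay between that range and the controls. Tyms, thymidylate synthase, was steadier. At PND 30 Tyms lay at -4.53, -4.43, -4.31 and -4.60 in controls and -3.92, -4.87, -4.48 and -4.22 in EB. At PND 100 Tyms lay at -5.51, -6.01 and -5.06 in controls, -5.06, -5.83 and -4.89 in EB, -5.18, -5.61 and -5.27 in T+E and -3.99, -4.81 and -4.39 in EB+T+E. At PND 145 Tyms lay at -6.39, -6.18 and -6.25 in controls, -5.43, -5.63, -5.15 and -5.33 in EB, -5.61, -5.54 and -5.53 in T+E and -4.65, -4.63 and -4.15 in EB+T+E. Its EB+T+E arrays were above all other arrays of their age at both ages.

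Of the regulators, E2f7 moved by the most. At PND 30 E2f7 lay at -3.63, -4.13, -3.51 and -3.54 in controls and -3.14, -4.26, -4.07 and -4.11 in EB. At PND 100 E2f7 lay at -8.67, -8.22 and -7.43 in controls, -5.96, -7.22 and -5.05 in EB, -7.89, -8.12 and -5.85 in T+E and -3.08, -4.72 and -4.90 in EB+T+E. At PND 145 E2f7 lay at -7.35, -7.88 and -6.92 in controls, -8.70, -7.39, -9.13 and -6.17 in EB, -8.36, -7.08 and -8.21 in T+E and -4.45, -4.61 and -5.63 in EB+T+E. The EB arrays of PND 100 lay between control and EB+T+E, and the EB+T+E arrays were the highest of their age at both ages. The 2 probes of E2f7 correlated at -0.13, and with the mean of both the ratio of EB+T+E to control was 1.77 in place of 3.88 at PND 100, still called.

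E2f1, an activator of replication genes, and Foxm1, an activator of mitosis genes, moved less. At PND 30 E2f1 lay at -1.50, -2.29, -1.27 and -1.52 in controls and -1.03, -2.37, -2.21 and -1.97 in EB. At PND 100 E2f1 lay at -3.53, -3.43 and -3.27 in controls, -2.44, -4.05 and -2.82 in EB, -3.69, -3.19 and -2.14 in T+E and -0.95, -2.28 and -1.59 in EB+T+E. At PND 145 E2f1 lay at -3.07, -3.73 and -2.46 in controls, -3.74, -3.21, -3.57 and -3.22 in EB, -3.64, -3.52 and -3.54 in T+E and -2.57, -2.21 and -3.17 in EB+T+E. EB+T+E was above control on every array at PND 100 and overlapped it at PND 145. At PND 30 Foxm1 lay at -2.06, -2.23, -1.78 and -1.95 in controls and -1.69, -2.78, -2.57 and -2.38 in EB. At PND 100 Foxm1 lay at -3.75, -3.69 and -3.45 in controls, -3.67, -3.96 and -3.15 in EB, -3.69, -4.22 and -3.59 in T+E and -2.16, -2.98 and -3.30 in EB+T+E. At PND 145 Foxm1 lay at -3.40, -2.77 and -3.45 in controls, -4.37, -4.11, -4.91 and -3.56 in EB, -3.60, -3.69 and -3.81 in T+E and -3.09, -3.33 and -4.25 in EB+T+E. At PND 145 the control and EB+T+E arrays of Foxm1 overlapped.

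Mki67, the proliferation antigen Ki-67 that coats mitotic chromosomes, showed the shared pattern of the mitosis members. At PND 30 Mki67 lay at -0.04, -0.12, 0.45 and 0.35 in controls and 0.69, -0.24, -0.15 and 0.17 in EB. At PND 100 Mki67 lay at -3.94, -3.91 and -2.88 in controls, -1.49, -3.66 and -1.39 in EB, -3.44, -3.86 and -1.82 in T+E and 0.17, -0.98 and -0.87 in EB+T+E. At PND 145 Mki67 lay at -3.34, -3.29 and -2.08 in controls, -3.70, -3.69, -4.31 and -1.89 in EB, -3.61, -3.17 and -3.62 in T+E and -0.48, -0.83 and -1.55 in EB+T+E. EB+T+E was the highest group with no overlap at either age, and EB replicates 1 and 3 and T+E replicate 3 of PND 100 stood apart from the low arrays of their groups. Top2a, the topoisomerase that disentangles chromosomes, was high on the same arrays of EB and T+E at PND 100. At PND 30 Top2a lay at -0.84, -1.27, -0.25 and -0.39 in controls and -0.60, -0.85, -1.14 and -0.69 in EB. At PND 100 Top2a lay at -5.63, -5.13 and -3.99 in controls, -2.90, -6.25 and -2.98 in EB, -5.40, -5.44 and -3.58 in T+E and -1.89, -2.38 and -2.00 in EB+T+E. At PND 145 Top2a lay at -4.90, -4.37 and -2.89 in controls, -4.84, -4.73, -5.55 and -2.82 in EB, -4.92, -5.00 and -5.02 in T+E and -2.56, -2.14 and -3.49 in EB+T+E. At PND 145 control replicate 3 and EB replicate 4 overlapped the EB+T+E arrays of Top2a.

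Cdk1 and its partner cyclin Ccnb1 form the kinase that drives entry into mitosis. At PND 30 Cdk1 lay at 0.93, 0.59, 1.29 and 1.10 in controls and 1.50, 0.31, 0.55 and 0.64 in EB. At PND 100 Cdk1 lay at -2.60, -3.10 and -1.71 in controls, -0.60, -3.08 and -1.15 in EB, -2.64, -3.33 and -0.95 in T+E and 0.32, -0.38 and 0.08 in EB+T+E. At PND 145 Cdk1 lay at -2.18, -2.28 and -1.19 in controls, -2.94, -2.77, -2.81 and -1.24 in EB, -2.52, -2.01 and -2.16 in T+E and -0.37, -0.35 and -1.01 in EB+T+E. The EB+T+E arrays of Cdk1 were the highest of their age at both ages. At PND 30 Ccnb1 lay at -1.85, -2.04, -1.11 and -1.56 in controls and -0.93, -1.92, -1.72 and -1.66 in EB. At PND 100 Ccnb1 lay at -5.29, -5.60 and -4.53 in controls, -3.16, -5.55 and -3.25 in EB, -5.76, -5.64 and -3.62 in T+E and -1.68, -2.60 and -2.36 in EB+T+E. At PND 145 Ccnb1 lay at -4.62, -3.26 and -4.01 in controls, -4.95, -5.29, -5.00 and -3.59 in EB, -5.30, -4.61 and -5.36 in T+E and -2.07, -2.40 and -3.31 in EB+T+E. Control replicate 2 of PND 145, the array with high spermatid markers, was the highest control for Ccnb1 and overlapped EB+T+E. That array was the highest control of its age for 14 of 43 members, and control replicate 3 was so for 25.

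Plk1 and Aurkb are mitotic kinases, and Birc5 (survivin) is a partner of Aurkb at the centromere. At PND 30 Plk1 lay at -1.19, -1.15, -0.74 and -0.93 in controls and -0.15, -1.63, -1.71 and -1.12 in EB. At PND 100 Plk1 lay at -4.55, -4.38 and -3.61 in controls, -2.43, -4.01 and -2.15 in EB, -4.04, -4.26 and -2.61 in T+E and -0.77, -2.02 and -1.61 in EB+T+E. At PND 145 Plk1 lay at -4.12, -2.37 and -3.27 in controls, -4.12, -4.25, -4.30 and -2.99 in EB, -3.98, -3.62 and -4.43 in T+E and -1.58, -1.56 and -2.35 in EB+T+E. For Plk1 too, control replicate 2 of PND 145 was the highest control. At PND 30 Aurkb lay at -4.06, -4.97, -3.66 and -4.35 in controls and -3.46, -4.92, -5.70 and -4.49 in EB. At PND 100 Aurkb lay at -8.08, -9.43 and -7.77 in controls, -6.46, -7.86 and -5.72 in EB, -7.90, -8.58 and -6.80 in T+E and -4.79, -5.33 and -5.57 in EB+T+E. At PND 145 Aurkb lay at -7.37, -8.35 and -6.61 in controls, -8.71, -9.39, -9.09 and -6.95 in EB, -9.28, -7.71 and -7.80 in T+E and -5.09, -5.00 and -6.23 in EB+T+E. Aurkb in EB+T+E did not overlap any other group of its age. At PND 30 Birc5 lay at -2.53, -3.01, -1.95 and -2.14 in controls and -1.63, -2.84, -2.74 and -2.50 in EB. At PND 100 Birc5 lay at -5.44, -5.90 and -4.84 in controls, -4.16, -5.73 and -3.29 in EB, -6.12, -5.84 and -4.12 in T+E and -4.06, -3.57 and -3.28 in EB+T+E. At PND 145 Birc5 lay at -5.10, -4.92 and -4.06 in controls, -5.70, -5.50, -5.53 and -4.13 in EB, -5.43, -4.67 and -5.55 in T+E and -4.28, -2.76 and -3.94 in EB+T+E. Birc5 in EB+T+E overlapped EB at both ages and control at PND 145, and did not overlap T+E.

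Ube2c, the ubiquitin-conjugating enzyme of the anaphase-promoting complex, had the largest ratio of T+E to control among the mitosis members at PND 100. At PND 30 Ube2c lay at -2.47, -2.71, -2.02 and -2.33 in controls and -1.64, -2.92, -2.84 and -2.44 in EB. At PND 100 Ube2c lay at -5.97, -5.48 and -4.84 in controls, -2.94, -6.74 and -4.52 in EB, -3.74, -3.53 and -2.34 in T+E and -2.52, -3.30 and -2.17 in EB+T+E. At PND 145 Ube2c lay at -5.32, -4.76 and -3.80 in controls, -3.59, -5.70, -3.20 and -4.38 in EB, -4.99, -5.17 and -5.05 in T+E and -3.09, -3.40 and -3.86 in EB+T+E. All 3 T+E arrays of PND 100 were above every control array. The same held for Pimreg, at -5.98, -6.24 and -5.81 in T+E and -6.84, -6.67 and -6.92 in controls. In that comparison the arrays of both groups were apart for 3 members (6.98%) and for 21.4% of all genes. The Ube2c difference from control there was 2.23 ± 0.65 and did not pass (limma adjusted p = 0.177).

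**Figure D3:**
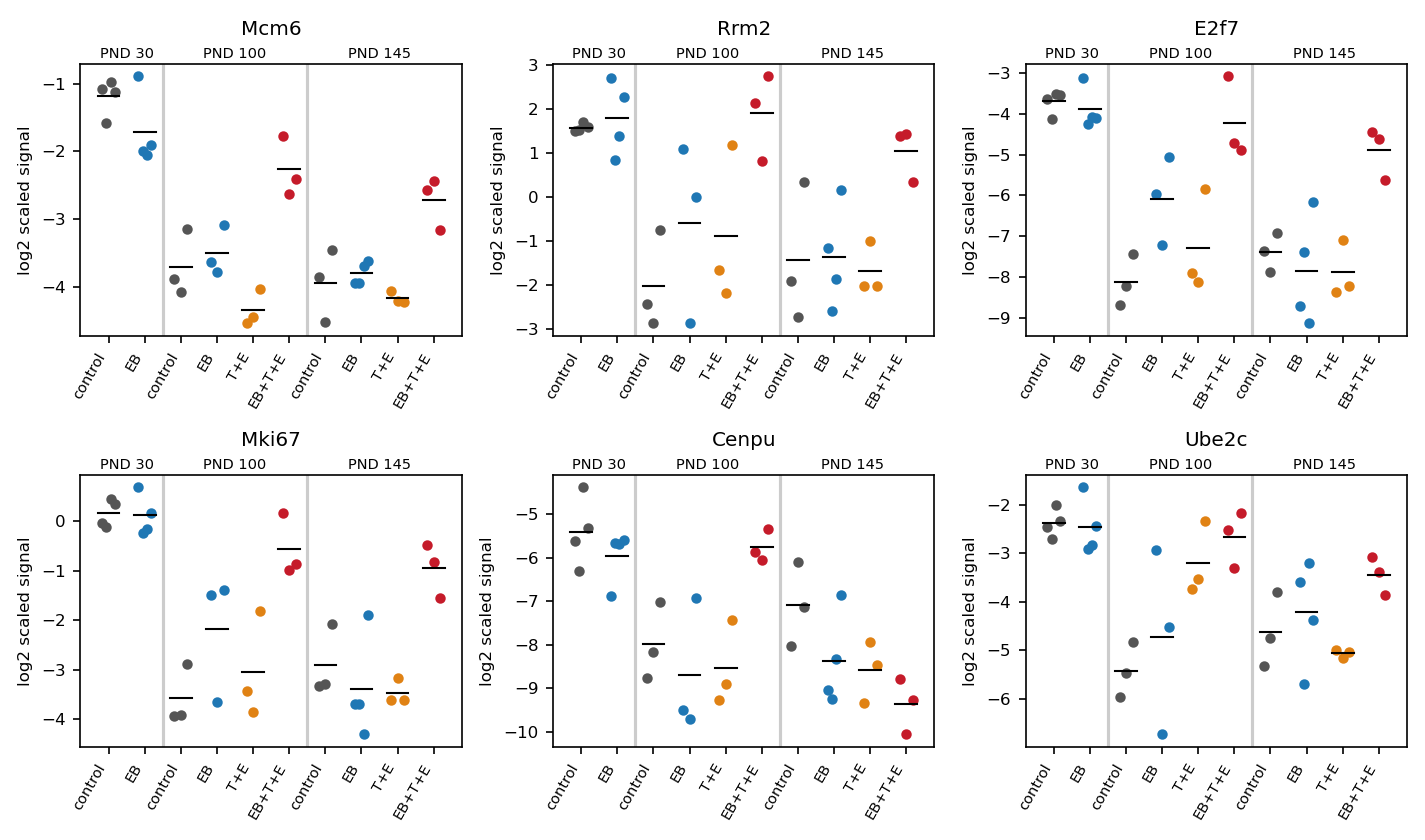
Log2 scaled signal of Mcm6, Rrm2, E2f7, Mki67, Cenpu and Ube2c on each of the 33 arrays (points) by age and group, with a line at each group mean. Cenpu is high in EB+T+E at PND 100 (-6.06 to -5.34) and low in EB+T+E at PND 145 (-10.06 to -8.78), unlike the other genes drawn.

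Neonatal EB alone, compared with control of the same age, called no member at any age. At PND 30 the median over the members was -0.14, equal to that of all genes, 0.0475% of genes were called, and 1 member (2.33%) had an unadjusted p under 0.05, against 11.9% of all genes. The smallest p belonged to Cdc6, the licensing factor (-1.18 ± 0.52, limma adjusted p = 0.364), and Mcm6 (-0.52 ± 0.28, 0.456). At PND 100 the mitosis members had a median of 0.88 and the replication members 0.20, against -0.06 for all genes, and 2.7% of genes were called. At an unadjusted p under 0.05 the members' share was near that of all genes, with 9 members (20.9%) against 22.3%. The smallest p belonged to E2f7 (2.03 ± 0.68, adjusted p = 0.0831), which was not well above background on any control array and so was at least 3.23-fold higher, and the checkpoint kinase Bub1 (1.42 ± 0.48, 0.0859). Replicate 2 of EB at PND 100 was the lowest of its group for 37 of 43 members. Without it 1 member was called, where 405 genes were called in all, against 624 with every array. In that fit 26 members had an unadjusted p under 0.05, and the share of all genes at that p was not computed. The median over the members was then 1.60, against -0.04 over all genes. The median over the members was -0.83 on the slide that held replicate 2 and 1.51 on the other shared slide. Of the other mitosis genes Sgo1 rose (at least 2.42-fold, adjusted p = 0.0286). At PND 145 the median was -0.33 over the members and -0.01 over all genes, 0.57% of genes were called, and 4 members (9.3%) had an unadjusted p under 0.05, against 15.2% of all genes. Cdkn3, a phosphatase of Cdk kinases, lay at -1.77 ± 0.51 (adjusted p = 0.101) and Tyms at 0.89 ± 0.27 (0.122).

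Adult T+E alone, compared with control, also called no member. At PND 100 the median was 0.16 over the members and -0.04 over all genes, 0.182% of genes were called, and 1 member (2.33%) had an unadjusted p under 0.05, against 8.35% of all genes; after Ube2c the smallest p was that of Mcm6 (-0.63 ± 0.32, limma adjusted p = 0.622). Replicate 3 of T+E at PND 100 was the highest of its group for 41 of 43 members, and the median over the members was 1.36 on its slide against -0.59 and -0.14 on the other shared slides. At PND 145 the median was -0.50 over the members and -0.04 over all genes, 0.385% of genes were called, and 4 members (9.3%) had an unadjusted p under 0.05, against 9.84% of all genes. The spindle factor Tpx2, not well above background on any T+E array, was at least 2.51-fold lower without passing (adjusted p = 0.13), and Cdkn3 lay at -1.74 ± 0.54 (0.191).

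EB+T+E compared with control asks for the joint effect of neonatal EB and adult T+E. At PND 100, after 10 days of implants, 36 of 43 members rose and none fell: 8 of 11 replication members, 2 of 3 regulators and 26 of 29 mitosis members, where 12.6% of all genes were called, 5.4% higher and 7.22% lower. The median was 1.42 over the replication members, 2.67 over the mitosis members and -0.09 over all genes. Rrm2 rose by 3.91 ± 0.90 (a 15.1-fold ratio, limma adjusted p = 0.00646), E2f7 by 3.88 ± 0.68 (at least 11.6-fold, 0.00133), cyclin A2 (Ccna2) by 3.43 ± 0.79 (0.00639), and Pimreg by 3.21 ± 0.67 (0.00349). Aurkb was at least 6.02-fold higher, and Mki67 rose by 3.02 ± 0.58 (8.12-fold, adjusted p = 0.00218). The smallest rises were those of Pcna, 0.86 ± 0.27 (adjusted p = 0.0394), Tyms, 1.13 ± 0.29 (0.012), Mcm4, 1.16 ± 0.37 (0.0403), and Mcm5, 1.42 ± 0.43 (0.0291); with the mean of its 4 probes Mcm4 was not called (0.68, 0.162). Members that did not pass were Kif11 (0.01), the kinetochore motor Cenpe (0.31, with neither group well above background), Mcm7 (0.50), Mcm2 (0.55), Foxm1 (0.82), Aurka (1.00, adjusted p = 0.0637) and Cdc6 (1.52, 0.0936). The median over the members was 2.27 and 2.35 within the shared slides. EB+T+E replicate 1, the array with the low luminal mean, was the highest of its group for 32 of 43 members. Without it the count was 15, where 699 of all genes were called, against 2921 with every array. Without control replicate 1 the count was 23, where 1342 genes were called. In a fit of only these groups no member and 0 genes were called, with 38 members at an unadjusted p under 0.05. The share of all genes at that p was not computed there.

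Of the other replication genes 4 of 31 rose and 1 fell at PND 100, with a median of 0.51: Uhrf1 rose by 2.78 ± 0.45 (at least 2.27-fold, limma adjusted p = 0.000793) and the helicase Hells by 2.73 ± 0.84 (0.0322), while Gins4, a subunit of the replicative helicase, fell by 2.55 ± 0.72 (0.0213). Of the other mitosis genes 26 of 40 rose and none fell, with a median of 1.79, led by Sgo1 (3.98 ± 0.64, at least 5.84-fold, adjusted p = 0.000763), Kif18b (2.54, 0.00157) and Tacc3 (2.24, 0.00162). Of 14 G1 cyclins, kinases and E2F partners 3 rose and 1 fell: Mybl2, the B-Myb partner of MuvB, by 3.59 ± 0.66 (adjusted p = 0.00177) and E2f8 by 3.50 ± 0.76 (0.00445), while Cdk6 fell by 2.04 ± 0.60 (0.0259). Of 16 S-phase checkpoint and repair genes 5 rose, Timeless (1.75) and Exo1 (3.25) among them, and 1 fell, the Cdk1-inhibiting kinase Wee1, by 1.48 ± 0.22 (0.000584). Of 18 inhibitors and quiescence genes 1 rose, Cdkn2d (1.46), and 3 fell, among them Btg1 by 1.09 ± 0.21 (adjusted p = 0.00234) and Cdkn1b (p27) by 0.59.

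**Figure D4:**
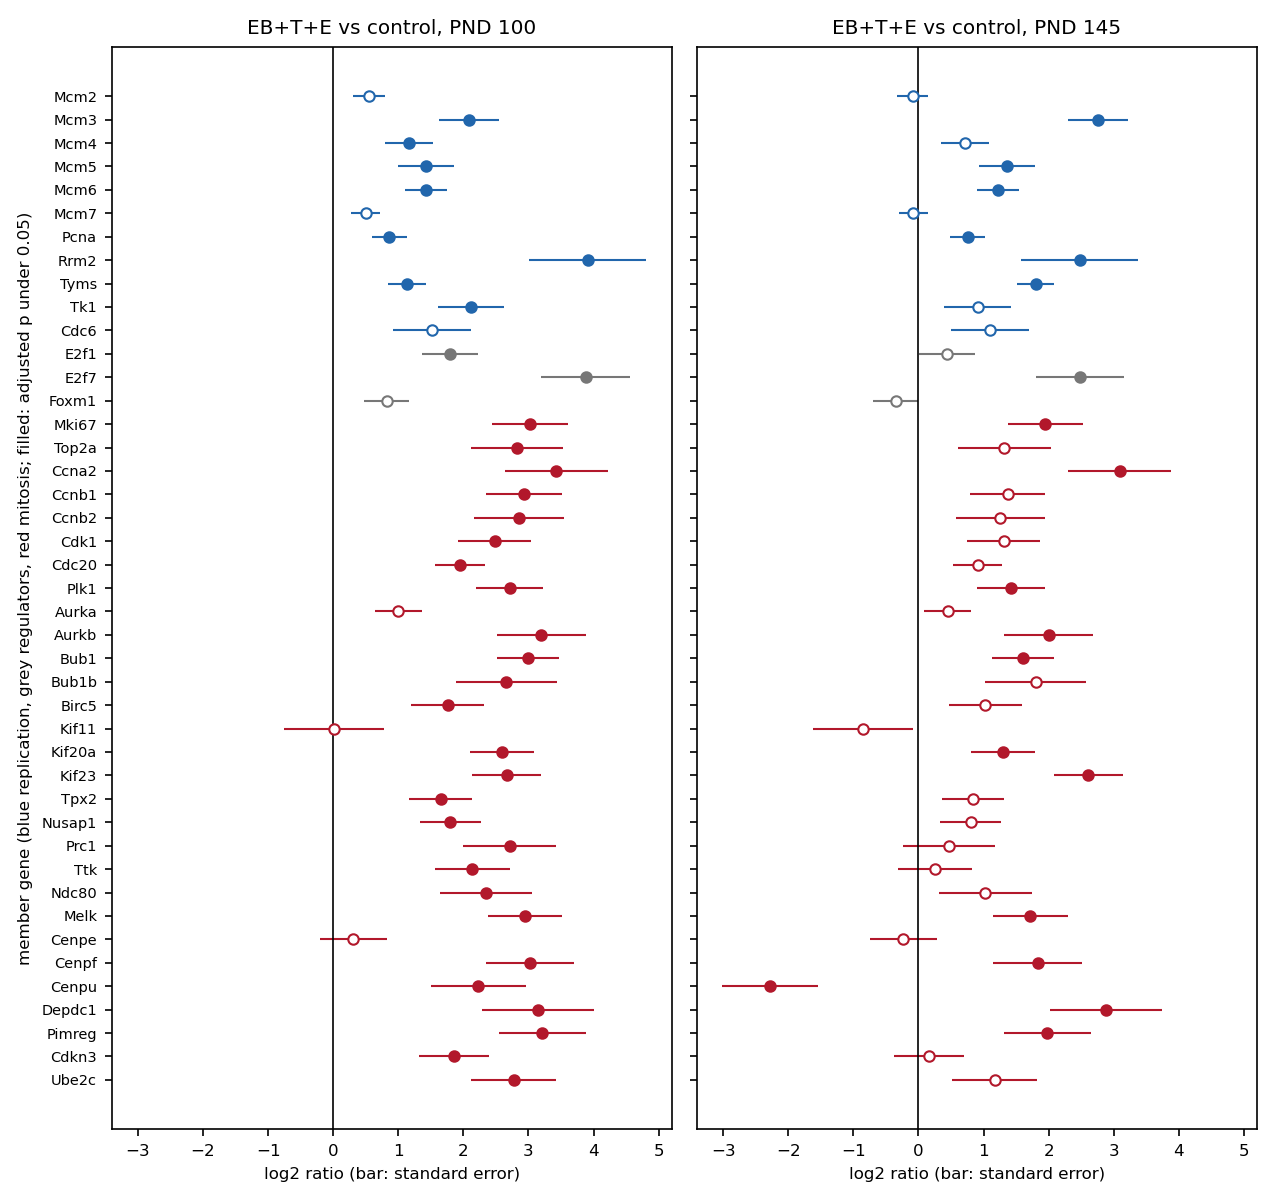
Log2 ratio of EB+T+E to control with its standard error for the 43 tested members at PND 100 and PND 145 (shared horizontal axis); filled points have a limma adjusted p under 0.05, with replication members in blue, regulators in grey and mitosis members in red. At PND 100 36 points are filled, all above 0, and at PND 145 18 are filled above 0 and Cenpu at -2.28.

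At PND 145, after 55 days of implants, 18 members rose (6 of 11 replication members, E2f7 and 11 of 29 mitosis members) and Cenpu fell, in a comparison where 35.4% of all genes were called, 14.8% higher and 20.7% lower. The median was 1.10 over the replication members, 1.30 over the mitosis members and -0.24 over all genes, so the all-gene centre itself lay below 0. An unadjusted p under 0.05 was found for 23 members (53.5%), against 45.7% of all genes. Ccna2 rose by 3.09 ± 0.79 (limma adjusted p = 0.00411), Depdc1 by 2.88 ± 0.86 (0.0115; 1 of 3 control arrays well above background), Mcm3 by 2.76 ± 0.46 (6.75-fold, 8.52e-05) and the midzone kinesin Kif23 by 2.61 ± 0.53 (0.000564). Tyms rose by 1.80 ± 0.29 (adjusted p = 5.43e-05), E2f7 by 2.48 ± 0.68 (0.00678; 1 of 3 control arrays well above background) and Rrm2 by 2.48 ± 0.90 (0.0343). The smallest rises were those of Pcna, 0.76 ± 0.27 (adjusted p = 0.0333), Mcm6, 1.22 ± 0.32 (0.00506), Kif20a, 1.30 ± 0.49 (0.042), and Mcm5, 1.36 ± 0.43 (0.0162). Cenpu, a centromere protein singled out after its values were seen, lay at -8.02, -6.10 and -7.14 in controls and -8.78, -10.06 and -9.26 in EB+T+E and fell by 2.28 ± 0.73 (at least 1.76-fold, adjusted p = 0.0172). The highest control for Cenpu was replicate 2, and without that array 8 members were called, all higher; Cenpu was called neither then nor without EB+T+E replicate 2. The count of members called was 12 without control replicate 1, 8 without EB+T+E replicate 1, 9 without EB+T+E replicate 2 and 24 without EB+T+E replicate 3. Over all genes 6664 were called without control replicate 1 and 5736 without control replicate 2, against 8200 with every array. Without EB+T+E replicate 1 or 2 there were 5172 and 5782. The median over the members was 1.50 on one shared slide and 0.28 on the other, which held control replicate 3 and EB+T+E replicate 3, the lowest of its group for 38 members.

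Of the other replication genes 2 of 31 rose and 3 fell at PND 145, where 14.8% of all genes were higher and 20.7% lower. They include Pold1 (1.21), Gins4 (-2.28) and Uhrf1, higher with no fold given, since it was not well above background in controls. The mean over that list was -3.43 ± 0.13 in controls and -3.46 ± 0.25 in EB+T+E, so the list as a whole did not rise. Of the other mitosis genes 16 of 40 rose and 3 fell, with Fbxo5 at least 3.32-fold higher, Tacc3 at 2.15 and Cks1b at -2.06. Of the G1 list 3 rose and 2 fell, with E2f2 at 1.30, Cdc25a at -0.86 and Cdk6 at -2.08. Of the S-phase checkpoint list 5 rose and 3 fell, with Wee1 at -1.14, Timeless at 1.42 and Exo1 at 2.23. Of the inhibitors 4 rose and 2 fell, with Cdkn2c at 1.11, Gas1 at -0.95 and Tob1 at -1.16. In controls and EB+T+E the mean was -4.16 ± 0.29 and -3.29 ± 0.34 over the other mitosis genes. It was -2.27 ± 0.13 and -2.17 ± 0.11 over the G1 list, and -4.01 ± 0.10 and -3.64 ± 0.24 over the checkpoint list. Over the inhibitors it was -1.43 ± 0.07 and -1.32 ± 0.02.

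Compared with EB alone at PND 100, EB+T+E called 4 members, all higher, where 1.71% of genes were called: Cenpu (2.95 ± 0.73, limma adjusted p = 0.0335; 1 of 3 EB arrays well above background), Cdkn3 (2.09 ± 0.54, 0.0436), Mcm6 (1.23 ± 0.32, 0.0441) and thymidine kinase Tk1 (1.97 ± 0.51, 0.0442). All 43 members had a ratio above 0, 37 (86%, against 15.6% of all genes) had an unadjusted p under 0.05, and the median was 1.50 against -0.05 over all genes. The count was 0 without EB replicate 2 or without EB+T+E replicate 1, 1 without EB replicate 3, 9 without EB replicate 1 and 8 without EB+T+E replicate 2. In that order 135, 47, 23, 693 and 1174 of all genes were called, against 395 with every array. In a fit of only these groups no member and 0 genes were called, with 16 members at an unadjusted p under 0.05. The share of all genes at that p was not computed there. Within the 3 shared slides the median was 3.25, 0.59 and 0.76, the first of these from the slide of EB replicate 2.

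Compared with EB alone at PND 145, EB+T+E had 28 members higher and none lower (7 replication members, E2f7 and 20 mitosis members), where 23% of genes were called. The median was 1.07 over the replication members, 1.76 over the mitosis members and -0.22 over all genes. Aurkb rose by 3.09 ± 0.64 (limma adjusted p = 0.00116), Ccna2 by 3.00 ± 0.74 (0.0047), E2f7 by 2.95 ± 0.64 (0.00167) and Mcm3 by 2.63 ± 0.43 (0.000155). Of the 4 EB arrays, 1 measured Aurkb well above background, 1 E2f7 and 3 Ccna2, so the sizes of these rises depend on signals near background. The smallest rises were 0.70 for Pcna, 0.91 for Tyms, 0.94 for Aurka and 1.07 for Mcm6. The count was 15 without EB replicate 1, 16 without EB replicate 3, and 13 without EB+T+E replicate 1 or 2. In that order 3654, 4206, 2762 and 2978 of all genes were called, against 5314 with every array. Within the 3 shared slides the median was 2.24, 2.12 and 1.54.

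Compared with T+E alone at PND 100, EB+T+E had 26 members higher and none lower (6 replication members, E2f7 and 19 mitosis members), where 3.99% of genes were called. The median was 2.07 over the replication members, 2.27 over the mitosis members and -0.10 over all genes. E2f7 rose by 3.06 ± 0.68 (limma adjusted p = 0.0149), Ccna2 by 2.95, the kinase Melk by 2.93 and Cenpf by 2.83; E2f7, Melk and Cenpf were each well above background on 1 of 3 T+E arrays. The smallest rises were 0.95 for Pcna, 1.37 for Cdc20, 1.65 for Nusap1 and 2.07 ± 0.32 for Mcm6 (0.004). Rrm2, at 2.79, did not pass (adjusted p = 0.0748). Within the shared slides the median over the members was 3.02 and 2.44. The count was 1 without EB+T+E replicate 1 or without T+E replicate 1 and 7 without T+E replicate 2. In these fits 9, 14 and 288 of all genes were called, against 923 with every array. In a fit of only these groups no member and 0 genes were called, with 38 members at an unadjusted p under 0.05. The share of all genes at that p was not computed there.

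Compared with T+E alone at PND 145, EB+T+E had 27 members higher and none lower (7 replication members, E2f7 and 19 mitosis members), where 21.4% of genes were called. The median was 1.44 over the replication members, 1.90 over the mitosis members and -0.16 over all genes. The largest rises were those of Ccna2 and E2f7, both 2.98 (E2f7 at least 4.80-fold higher), Aurkb, 2.82 (at least 3.30-fold), and Rrm2, 2.73, and the smallest were 1.08 for Tyms, 1.44 for Mcm6, 1.49 for Cdc20 and 1.54 for Mcm5. The count was 16 without EB+T+E replicate 1 or 2, where 2742 and 2973 of all genes were called, against 4962 with every array. The median over the members was 1.77 and 1.28 within the shared slides. The 3 comparisons of EB+T+E at each age share its arrays, and those of EB and of T+E with control share the control arrays, so they are not independent of each other.

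Whether the joint effect differs from the sum of EB and T+E was tested as an interaction. At PND 100 no member was called and 0% of genes were. An unadjusted p under 0.05 was found for 9 members (20.9%, against 8.63% of all genes), and the median was 1.30 against -0.06 over all genes. Mcm6 (1.86 ± 0.45, limma adjusted p = 0.309) and Mcm5 (2.19 ± 0.61, 0.314) came first. Without EB+T+E replicate 3 the count was 2, where 346 genes were called. At PND 145, 3 mitosis members were called, where 0.774% of genes were: Cdkn3 (3.67 ± 0.74, adjusted p = 0.0164), Aurkb (3.92 ± 0.94, 0.045) and Ccnb1 (3.25 ± 0.79, 0.0484). The Aurkb value rests on groups near background, since Aurkb was well above it on 1 of 3 control, 1 of 4 EB and 0 of 3 T+E arrays. All 43 members had an interaction above 0, 31 (72.1%, against 13.5% of all genes) had an unadjusted p under 0.05, and the median was 2.08 against -0.15 over all genes. Of the other mitosis genes 6 had an interaction above 0 that was called. Among them were Cks2 (3.30, limma adjusted p = 0.0196), Espl1 (4.64, 0.0416) and Cdca2 (5.14 ± 1.02, 0.0142), which was not well above background on any T+E array. The count of members was 0 without EB+T+E replicate 1 or 2 or T+E replicate 1, 1 without control replicate 3, T+E replicate 3 or EB replicate 1, 2 or 3, 5 without T+E replicate 2, 6 without EB replicate 4 and 13 without EB+T+E replicate 3. Over all genes 39, 32 and 51 were called in the fits with a count of 0, against 179 with every array. The other fits named called 63 to 234 genes, and 657 without EB+T+E replicate 3. Over 23 alternative settings Ccnb1 lost its call in 16, Aurkb in 15 and Cdkn3 in 4.

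The effect of EB was also set against itself across ages. The difference between PND 100 and PND 30 called no member (0.0216% of genes; 7 members, 16.3%, at an unadjusted p under 0.05, against 8.42% of all genes; median 0.80 against 0.09 over all genes), with the smallest p for E2f7, again not well above background in PND 100 controls, at 2.22 ± 0.90 (limma adjusted p = 0.479). The difference between PND 145 and PND 100 called none either (0% of genes; 9 members, 20.9%, against 4.31% of all genes; median -1.05 against 0.03), with Aurkb, not well above background in PND 100 controls, at -2.84 ± 0.94 and Plk1 at -1.98 ± 0.71 (both adjusted p = 0.999). From PND 100 to PND 145 within EB+T+E 1 member was called, where 3.47% of genes were: Cenpu fell by 3.61 ± 0.73 (at least 4.41-fold, adjusted p = 0.00492), from -5.87, -6.06 and -5.34 to -8.78, -10.06 and -9.26. The median over the members was -0.50 against -0.05 over all genes. The count was 2 without EB+T+E replicate 2 of PND 100, 0 without EB+T+E replicate 2 of PND 145, and 0 in a fit of only these groups, with 4 members at an unadjusted p under 0.05. In that order 1350, 206 and 41 of all genes were called, against 802 with every array in the main fit. The replicate numbers of these arrays correlated at 0.12 to 0.34 in their deviations, and with the replicate number as a block the count was 1.

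Kif11 did not follow the other mitosis members in the comparisons of EB+T+E with control. Kif11 lay at -0.99, -1.44 and -3.94 in controls and -1.59, -1.94 and -2.81 in EB+T+E at PND 100. At PND 145 it lay at -0.83, -2.99 and -2.23 in controls and -1.95, -1.87 and -4.77 in EB+T+E. The spread within these groups was as wide as the distance between control and EB+T+E. In EB at PND 100 Kif11 lay at -3.24, -3.83 and -3.03, below every EB+T+E array. In T+E at PND 100 it lay at -5.13, -3.71 and -1.95. Cenpe was well above background on 7 arrays, all of PND 30, so its adult levels cannot be ordered.

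Markers of other cell types also differed between groups, in EB or T+E alone as well as in EB+T+E. They are given here as sums of linear scaled signals over each list, which a few bright markers can set. For the myeloid and B cell lists the mean of the log2 values is given as well. The sum of 12 T and NK cell markers was 0.576 to 0.789 in PND 100 controls, where Cd3e and Cd2 were not well above background, and 0.469 to 0.742 in PND 145 controls, where Cd3e, Cd2 and Cd5 were not. At PND 100 it was 1.06 to 8.96 in EB, 0.839 to 1.09 in T+E and 1.98 to 3.26 in EB+T+E. At PND 145 it was 0.818 to 1.14 in EB, 0.871 to 1.75 in T+E and 5.26 to 19.3 in EB+T+E. In EB+T+E against control 3 of these 12 markers rose at PND 100 and 12 of 12 at PND 145. The sum of 10 myeloid markers was 11.8 to 15.3 and 9.66 to 16.3 in the controls, and 48.7 to 108 and 72 to 102 in EB+T+E, with 8 and 9 of 10 higher. In EB, where no member was called against control, the myeloid sum was 43.1 to 61.9 at PND 100 and 16.4 to 80.4 at PND 145. The log2 mean over the myeloid list was -0.24 to 1.33 in EB and 1.08 to 2.24 in EB+T+E at PND 100. At PND 145 it was -0.74 to -0.17 in EB and 1.56 to 2.15 in EB+T+E. In T+E the myeloid sum was 19.4 to 34.3 at PND 100 and 13.3 to 26.4 at PND 145. The sum of 10 B cell and plasma cell markers was 1.33 to 12.3 in PND 145 controls, where 7 of them were not well above background on any array. It was 15.9 to 31.8 in EB+T+E at PND 145, with 8 of 10 higher. At PND 100 the B cell sum was 0.679 to 1.51 in controls and 1.07 to 77.6 in EB+T+E, with 1 marker higher. At PND 100 it was 1.42 to 24.1 in EB and 24.1 to 71.1 in T+E, where 5 of the markers were not well above background. The log2 mean over the B cell list ordered the groups differently. At PND 100 it was -7.31 to -6.30 in controls, -6.38 to -5.67 in T+E, -5.45 to -1.42 in EB and -5.22 to -4.68 in EB+T+E. In EB+T+E at PND 145 it was -2.22 to -0.52. Of 8 fibroblast markers 4 rose at PND 100 and 8 at PND 145, with sums of 14.8 to 30.6 and 10.8 to 13.7 in controls and 22.3 to 108 and 42.1 to 54.3 in EB+T+E. The fibroblast sum was 36.3 to 71.3 and 14.3 to 28.3 in EB, and 26.6 to 41.3 and 22.2 to 36.9 in T+E. Of 6 endothelial markers 2 and 4 rose. Of 6 luminal epithelial markers 3 fell at each age. At PND 30, where the members were highest, the T and NK sum was 0.607 to 1.34 in controls and 0.406 to 0.854 in EB. The myeloid sum at PND 30 was 7.37 to 24 in controls and 9.26 to 51.2 in EB, which reached into the EB+T+E range of PND 100. The log2 mean over that list did not reach it, at -1.17 to -0.63 in EB at PND 30 against 1.08 to 2.24. Replicate 2 of EB at PND 100 had a mean T and NK marker level of -3.16, against -5.39 in replicate 1 and -1.86 in replicate 3, and was the lowest array of its group for 28 of 29 mitosis members. The part of these cells in the results on EB+T+E was not tested.

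**Figure D5:**
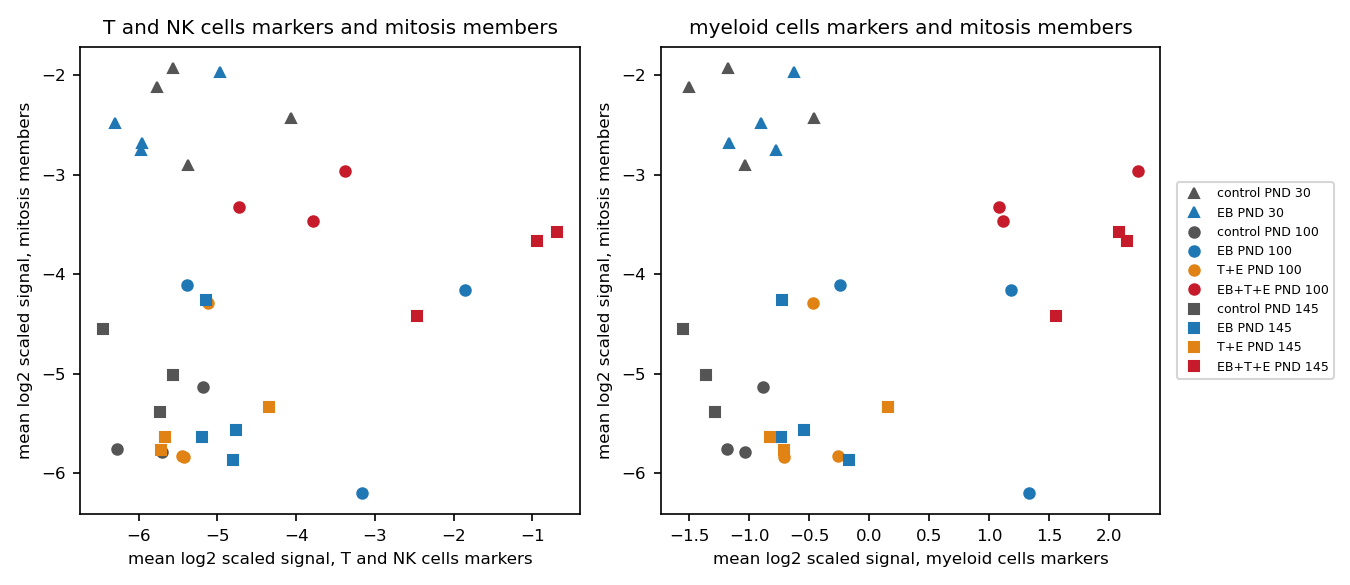
Mean log2 scaled signal of the T and NK cell markers and of the myeloid markers (horizontal axes) against the mean of the mitosis members (vertical axis) on each of the 33 arrays, by group. In EB+T+E the T and NK mean is -4.72 to -3.38 at PND 100 and -2.47 to -0.68 at PND 145, against -3.16 and -1.86 in EB replicates 2 and 3 of PND 100, and on the PND 30 arrays, where the mitosis mean is -2.35 ± 0.42 in controls, the T and NK mean is at most -4.07.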

How the data were processed

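The deposited files hold the scanner output of 33 one-colour Agilent arrays (Cy3), extracted with Feature Extraction 12.0.0.7 and protocol GE1_1200_Jun14, per the file headers. Their values are intensity units, deposited by the authors as processed signals with background already subtracted, per the file headers. From each array's spots, outlier and control spots were left out, spots of 1 probe were averaged, and the log2 of the signal minus the log2 of the array's 75th percentile was taken; the brightest probe stood for each gene name. A gene name was kept if 3 or more of the 33 arrays had its probe well above background (23140). Of the 44 members, 27 have 1 probe and 17 several; the accessions of 39 gave the same symbol in RefSeq and 5 were not matched.

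The 10 group means were fitted together in limma 3.58.1 (R 4.3.3, data.table version 1.17.8) with trend and robust variance, and p-values were adjusted over all gene names by Benjamini-Hochberg, at 0.05. The steps were tested on simulated data. Tables and figures used Python 3.11.15, pandas 2.3.3 and matplotlib 3.10.9. The members and lists were chosen with earlier results of these data known. Values on every array are given for 15 members (Mcm2, Pcna, Rrm2, Tyms, E2f1, E2f7, Foxm1, Mki67, Top2a, Ccnb1, Cdk1, Plk1, Aurkb, Birc5 and Ube2c). In each comparison the called members are named, or the 4 largest and 4 smallest where more than 8 were called, or the 2 with the smallest p where none was. Of the other lists up to 3 called genes with the smallest p are named. A gene that this rule would name is not reported here. Any other member was chosen after its values were seen.

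Slides 1 to 4 each held 8 arrays of different groups and slide 5 held 1, with 1 scan time per slide. Same-numbered replicates of different groups had deviations that correlated at -0.44 to 0.46; every pair was over 0.1 only between EB+T+E at PND 100 and PND 145 (0.12 to 0.34), so the numbers were not taken to pair the samples elsewhere. The authors' table of the same arrays holds linear values with the 75th percentile at 619.4 to 619.5 on each array and correlates with the scanner values at 0.9996 or more on the log scale. Alternatives were normexp background correction, quantile normalization, other filters, the mean of all probes, the authors' table, the slide and the replicate number as blocks, array weights, a fit of only the groups compared, and each array left out in turn. The number of arrays limits the precision.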

Additional observations from a re-analysis of the deposited data

Results flagged for a closer look

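In the groups of 4 arrays, 54 sets of member values were looked at for an array far from the others, by the gap to its nearest neighbour over the whole range, and 4 had one; chance gives about 1 in 20. In EB at PND 145, replicate 4 stood apart for Cdk1, with a gap of 0.903 of the range (-1.24, against -2.94 to -2.77), Plk1 (0.861; -2.99, against -4.30 to -4.12) and Birc5 (0.870; -4.13, against -5.70 to -5.50). That array was the highest of its group for 35 of 43 members, and it is the only array of slide 5. In EB at PND 30, replicate 1 stood apart for E2f7 (0.831; -3.14, against -4.26 to -4.07).

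The effect of EB with T+E at PND 145 differed from the sum of the separate effects by a limma interaction for Ccnb1 (3.25 ± 0.79, adjusted p = 0.0484), Aurkb (3.92 ± 0.94, 0.045) and Cdkn3 (3.67 ± 0.74, 0.0164). Aurkb was well above background on 1 of 3 control, 1 of 4 EB and 0 of 3 T+E arrays there. Over 23 alternative settings the call was lost in 16 for Ccnb1, 15 for Aurkb and 4 for Cdkn3. The limma adjusted p reached 0.16, 0.416 and 0.0719 in these settings. All 3 lay above 0, as did the interactions of the other 40 tested members. Ccnb1 and Cdkn3 were not called in EB+T+E against control at PND 145, and their EB+T+E arrays overlapped the controls.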

How the results depend on the processing

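Counts of members called are given in the order of the comparisons named, out of 43. In a fit of only the groups compared the count was 0 for EB+T+E at PND 100 set against control, EB and T+E, for EB at PND 100 against PND 30, and for EB+T+E at PND 145 against PND 100. Those fits called 0, 0, 0, 6 and 41 of all genes. With normexp the member count was 18 for EB+T+E against EB and 17 against T+E at PND 145, 2 for EB+T+E at PND 145 against PND 100 and 1 for the interaction at PND 145. All-gene calls there were 4383, 4264, 734 and 138. The interaction at PND 145 also had a count of 1 with quantile normalization, with no filter, with a filter of 17 arrays and in the authors' table. In these settings 198, 121, 25 and 160 genes were called in all. With no filter EB+T+E against EB at PND 100 had 1 (319 genes called in all), and with 17 arrays EB+T+E between the ages had 0 (461 genes). With the slide as a block EB against control at PND 100 had 1, EB+T+E against EB at PND 100 had 2 and the interaction at PND 145 had 6. In that fit 1598, 350 and 153 of all genes were called in these comparisons. With array weights EB against control had 5, 1 and 1 at PND 30, 100 and 145, where 4932, 3547 and 1850 of all genes were called. T+E against control had 3 and 2 at PND 100 and 145, where 1971 and 830 genes were called. EB+T+E against EB at PND 100 had 1, where 76 genes were called. The interaction at PND 145 had 22, where 3861 genes were called.

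With 1 array left out at a time the count ran from 0 to 1 for EB against control at PND 100, and for EB+T+E from 15 to 35 and 8 to 24 against control at PND 100 and 145, 0 to 9 and 13 to 31 against EB, and 1 to 32 and 16 to 30 against T+E. It ran from 29 to 39 for control and 9 to 36 for EB between PND 30 and PND 100, 0 to 2 for EB+T+E between PND 100 and 145, and 0 to 2 and 0 to 13 for the interactions at PND 100 and 145. For the other comparisons it was 0 throughout. Of the 220 calls of members over all comparisons, none changed sign in any of these settings. The replicate number as a block moved no count by more than 1.5 times; EB against control at PND 30 kept a count of 0 with the block. The counts over all genes also changed between these settings, as given with the comparisons above. The causes of these changes were not tested.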
